A study of Mus musculus with 4 samples.

Results

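The cluster described here is the group of myeloid cells that the study's annotation labels Monocyte, and its members were all cells that carry this label. It held 861 of the 17674 deposited cells, 580 from Cyp51-KO tumors and 281 from sg-Ctrl tumors. C1qa, C1qb, C1qc and Apoe were given as its marker genes. The question was how this cluster differs between the groups in its share of the tumor's cells and in the UMIs, genes and mitochondrial transcripts of its cells.

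Single-cell RNA sequencing was done on tumors of CT26, a mouse colorectal carcinoma line, grown orthotopically in BALB/c mice, which the study's methods give as males aged 8 to 10 weeks at injection. In the Cyp51-KO group (9 tumors) the injected CT26 cells were a knockout of Cyp51, an enzyme of cholesterol synthesis, and in the sg-Ctrl group (12 tumors) they carried a control guide RNA. Both lines carried the BFP of the knockout vector, and tumors were taken at day 26. Sorted cells were mixed as 50% CD45+ leukocytes, 40% CD45+ CD3+ T cells and 10% CD45- BFP+ tumor cells, so the share of any leukocyte among all cells was partly set by the mix. The cells of the cluster came from the host, in which Cyp51 was not targeted. The labels list 2 samples per group, but each cell is tied only to its group. Each group was therefore 1 pooled sample, no test was possible, and every interval below covers counting error only.

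Monocytes are blood-borne phagocyte precursors that enter tumors and can mature there into macrophages. Ly6c2 and Ccr2 are textbook markers of inflammatory mouse monocytes. C1qa, C1qb and C1qc encode the chains of C1q, the recognition molecule that starts the classical complement pathway, and mature tissue macrophages are a main source of it. Apoe encodes apolipoprotein E, a lipid carrier that macrophages also secrete. The 3 C1q genes are neighbours on chromosome 4 in the GRCm38 build, all protein-coding and on the minus strand. C1qb lies at chr4:136880129-136886187, C1qc at chr4:136889804-136893065 and C1qa at chr4:136895917-136898803, and Apoe lies at chr7:19696109-19699188. The markers given for the cluster are thus better known from macrophages than from blood monocytes. Expression per gene was not analysed here, so neither these markers nor the deletion of Cyp51 was checked in these cells, and the cluster is called by its label only. The paper shows marker genes per cluster and the Cyp51 protein level of the knockout line, which were not drawn on here.

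Among myeloid cells, the cluster made up a larger share in Cyp51-KO tumors. It held 580 of 1946 myeloid cells, or 29.8% (exact 95% binomial interval, 27.8 to 31.9), in Cyp51-KO tumors. In sg-Ctrl tumors it held 281 of 1201, or 23.4% (21.0 to 25.9). The log2 ratio of Cyp51-KO over sg-Ctrl was 0.35, with a range of 0.10 to 0.60 when the lower bound of one share was set against the upper bound of the other. The intervals did not overlap.

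The Macrophage cluster, the nearest in kind, was the first reference. The cluster held 64.8% (61.6 to 67.9) of the cells of both clusters in Cyp51-KO tumors and 51.8% (47.5 to 56.1) in sg-Ctrl tumors, which gives a log2 ratio of 0.32 (0.13 to 0.51). This equals 1.84 cells of the cluster per Macrophage cell against 1.08. Against Neutrophils, short-lived granulocytes, it held 51.3% (48.3 to 54.2) against 38.6% (35.0 to 42.2), or 1.05 against 0.629 cells per neutrophil. Both references thus gave a higher value in Cyp51-KO tumors, with intervals apart. The cluster and the Macrophage cluster together held close shares of the myeloid cells, 895 of 1946 in Cyp51-KO and 542 of 1201 in sg-Ctrl tumors.

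With the clusters labelled Mast_cell or cDC as the reference, the intervals overlapped. Against Mast_cell, a label for granule-bearing tissue cells, the cluster held 58.9% (55.7 to 62.0) in Cyp51-KO tumors and 62.4% (57.8 to 66.9) in sg-Ctrl tumors, which gives a log2 ratio of -0.085 (-0.26 to 0.10). Against cDC, usually short for conventional dendritic cells, which present antigen to T cells, it held 85.9% (83.1 to 88.5) and 86.7% (82.5 to 90.2), a log2 ratio of -0.013 (-0.12 to 0.10). Whether the cells of these references match their labels was not checked either. These ranges include 0 and allow differences of the share in either direction, up to their bounds. In cells of the cluster per reference cell, the values were 1.43 against 1.66 for Mast_cell and 6.105 against 6.535 for cDC. A share that is already high moves little when this number changes, so larger differences in it are not excluded. The cDC cluster held only 95 cells in Cyp51-KO tumors and 43 in sg-Ctrl tumors.

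The denominator changed the size of the difference. Over all cells, the cluster's share was 5.53% (5.10 to 5.99) in Cyp51-KO tumors and 3.91% (3.47 to 4.38) in sg-Ctrl tumors. This denominator holds the cells labelled Malignant_cell, 2428 of 10484 cells in Cyp51-KO tumors and 729 of 7190 in sg-Ctrl tumors. The stated mix had 10% tumor cells in both groups. Over all immune cells the cluster's share was 7.34% (6.77 to 7.94) against 4.39% (3.91 to 4.93), the widest log2 ratio, at 0.74 (0.46 to 1.02). Over immune cells other than T cells, a denominator without the T cells added to the mix, it was 16.9% (15.7 to 18.2) against 12.0% (10.7 to 13.4). Without neutrophils in the myeloid denominator, it was 41.6% (39.0 to 44.2) against 37.3% (33.8 to 40.8), and the intervals overlapped, at a log2 ratio of 0.16 (-0.067 to 0.39). Without the Macrophage cluster it was 35.6% (33.2 to 37.9) against 29.9% (27.0 to 32.9), at a log2 ratio of 0.25 (0.013 to 0.49).

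**Figure D1:**
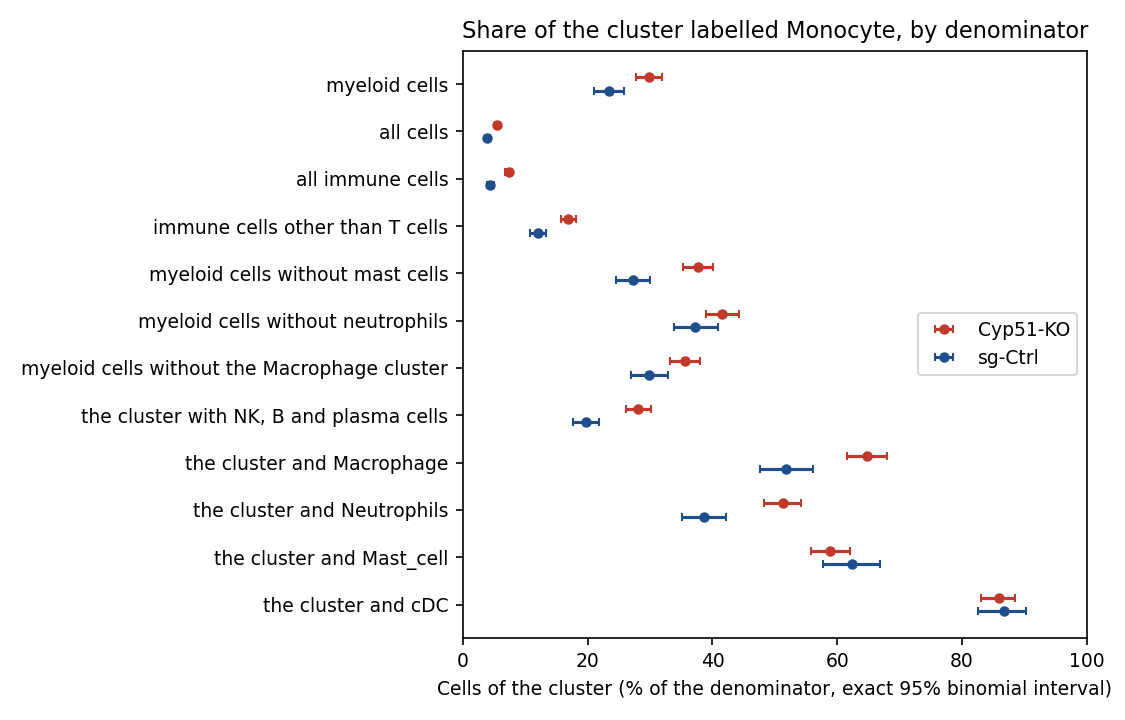
Share of the cluster labelled Monocyte in 12 denominators (percent, horizontal axis), with a point per group and bars for the exact 95% binomial interval. The Cyp51-KO point lies to the right for all denominators but the pairs with mast cells and with cDC, and the bars overlap for those pairs and for myeloid cells without neutrophils.

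The cells of the cluster had fewer UMIs in Cyp51-KO tumors. UMIs, the counts of distinct RNA molecules captured per cell, ran from 651 to 63916 in the Cyp51-KO group, around a median of 13992 (exact 95% interval from the ordered values, 12829 to 15085). In sg-Ctrl tumors the lowest was 947 and the highest 66104, with a median of 19716 (18416 to 21739). The log2 ratio of the medians was -0.49 (-0.76 to -0.29). UMIs per cell depend on the RNA in a cell and on how the library was captured and sequenced, and these cannot be told apart here. The median was lower in Cyp51-KO tumors in 18 of the 20 clusters, and the Macrophage cluster gave a log2 ratio of -0.51 (-0.76 to -0.29).

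The gap was widest among the cells with few UMIs. At the 10th percentile, the cluster had 4314 UMIs in Cyp51-KO tumors and 7916 in sg-Ctrl tumors, which gives a log2 ratio of -0.88. At the 90th percentile it had 29825 and 36028, a log2 ratio of -0.27. The Macrophage cluster went the other way at its 10th percentile, with 5191 UMIs in Cyp51-KO tumors and 3575 in sg-Ctrl tumors. Cells with 2000 to 7500 UMIs made up 123 of 580 cells of the cluster in Cyp51-KO tumors, or 21.2% (17.9 to 24.8). They made up 19 of 281, or 6.76% (4.12 to 10.4), in sg-Ctrl tumors. At 20000 UMIs or more, the order was the opposite, with 29.0% (25.3 to 32.8) against 48.4% (42.4 to 54.4). The Macrophage cluster had the same order in both ranges. Its cells with 2000 to 7500 UMIs made up 22.2% (17.8 to 27.2) in Cyp51-KO and 11.1% (7.57 to 15.6) in sg-Ctrl tumors. Those with 20000 or more made up 29.8% (24.8 to 35.2) and 44.8% (38.7 to 51.1).

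**Figure D2:**
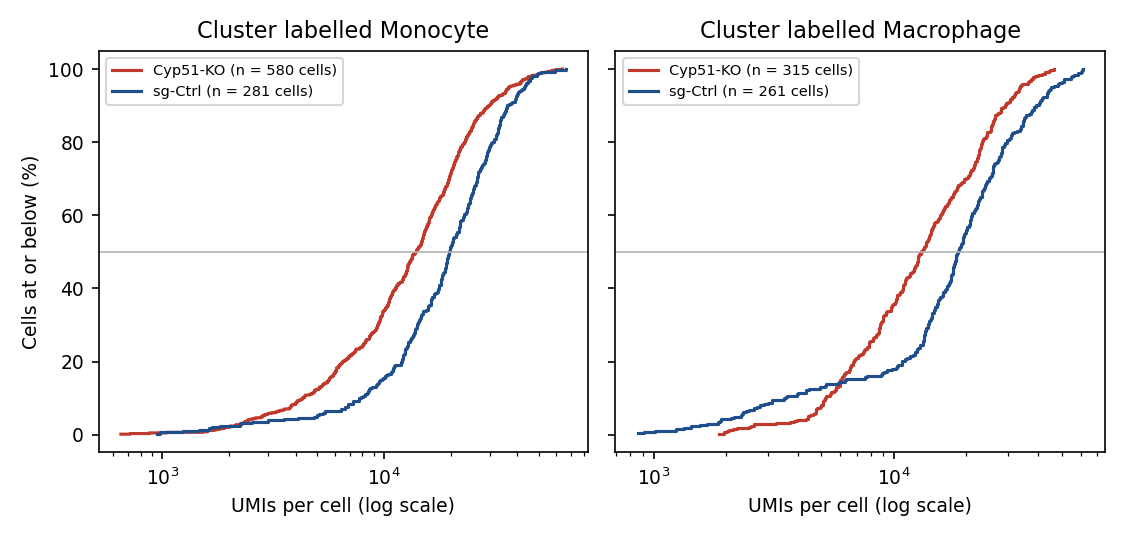
Percent of cells at or below a given number of UMIs per cell (log scale), for the cluster labelled Monocyte (left) and the Macrophage cluster (right), with a line per group and a grey line at the median. In the left panel the Cyp51-KO line reaches the median at 13992 UMIs and the sg-Ctrl line at 19716, and in the right panel the lines cross among cells with few UMIs.

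The share of the cluster among myeloid cells differed most in the same range of UMIs. Among myeloid cells with 2000 to 7500 UMIs, the cluster held 23.3% (19.8 to 27.2) in Cyp51-KO tumors and 4.49% (2.73 to 6.93) in sg-Ctrl tumors. Among those with 7500 to 20000 UMIs, it held 44.0% (40.0 to 47.9) and 36.0% (30.8 to 41.4), and the intervals overlapped. At 20000 or more, it held 49.1% (43.7 to 54.6) and 48.4% (42.4 to 54.4). Below 2000 UMIs, it held 2.68% (1.39 to 4.64) and 4.22% (1.71 to 8.50). The share of the Macrophage cluster was also higher in Cyp51-KO tumors from 2000 to 7500 UMIs. There it held 70 of 527 myeloid cells, against 29 of 423 in sg-Ctrl tumors. The medians of neutrophils, which had 4040 UMIs in the Cyp51-KO and 3903 in the sg-Ctrl tumors, lay in the range from 2000 to 7500. Their spread differed between the groups. The lower and upper quartiles of neutrophils were 1338 and 11382 UMIs in Cyp51-KO tumors. In sg-Ctrl tumors they were 2426 and 6137, both inside this range. How far this spread sets the difference in share was not tested.

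In 10 bins of UMIs with equal numbers of myeloid cells, the share was higher in Cyp51-KO tumors in 8 bins and lower in 2. The intervals were apart in 3 bins, which covered 2072 to 7582 UMIs, and there the Cyp51-KO share was the higher one. When both groups were given the same distribution of UMIs over these bins, the shares were 30.6% and 22.5%, a log2 ratio of 0.44. When only cells with at least 10000 UMIs were kept (a filter added with the data in view), the log2 ratio was 0.15 and its range, -0.091 to 0.40, included 0.

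**Figure D3:**
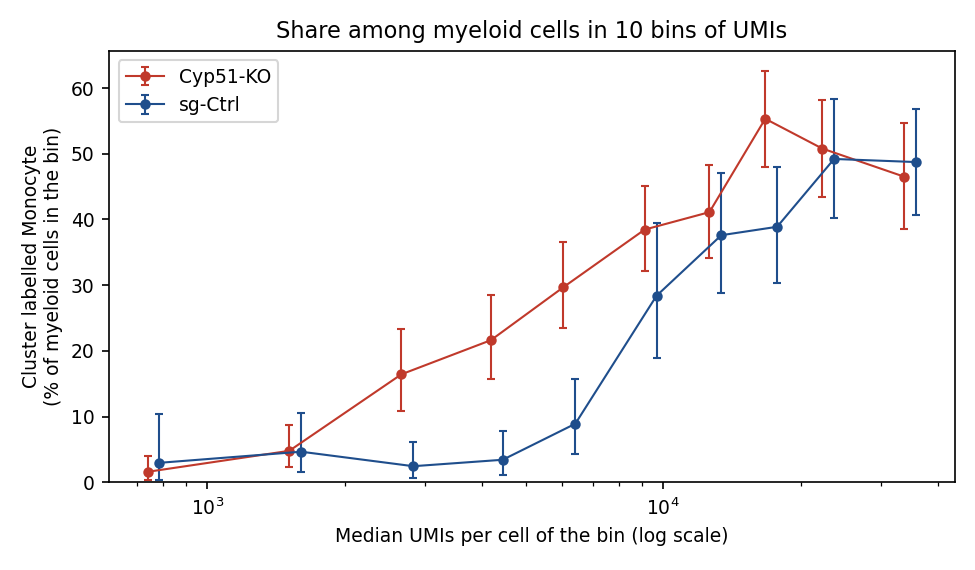
Share of the cluster labelled Monocyte among myeloid cells (percent, vertical axis) in 10 bins of UMIs per cell (median of the bin, log scale), with a line per group and exact 95% binomial intervals. The points of the groups are moved slightly apart sideways, and the bars do not overlap in the bins from 2072 to 7582 UMIs.

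The balance between the cluster and the Macrophage cluster was also compared by UMIs. Of the cells of both, the cluster held 63.7% (56.5 to 70.5) in the Cyp51-KO and 39.6% (25.8 to 54.7) in the sg-Ctrl tumors at 2000 to 7500 UMIs. Below 2000 UMIs, with 14 and 18 cells of both, it held 85.7% (57.2 to 98.2) and 38.9% (17.3 to 64.3). It held 65.0% (60.3 to 69.6) and 53.4% (46.6 to 60.1) at 7500 to 20000, and 64.1% (58.0 to 69.9) and 53.8% (47.4 to 60.0) at 20000 or more. The Cyp51-KO value was the higher one in each of these ranges, and the intervals were apart from 2000 to 7500 and from 7500 to 20000 UMIs only. In the 10 bins of myeloid cells, it was higher in 8, equal in 1 (58.8% in both groups, at 5188 to 7582 UMIs) and lower in 1 (61.6% against 65.7%, at 7614 to 10994 UMIs). With the same distribution of UMIs in both groups, the values were 65.4% and 53.3%, a log2 ratio of 0.30.

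Fewer genes were detected per cell of the cluster in Cyp51-KO tumors. The median was 3249 genes (3106 to 3381) there and 4119 (3962 to 4286) in sg-Ctrl tumors, which gives a log2 ratio of -0.34 (-0.46 to -0.23). Genes detected followed UMIs closely within each group, with a slope of log2 genes on log2 UMIs of 0.606 in the Cyp51-KO and 0.613 in the sg-Ctrl tumors. In 10 bins of UMIs over the cluster and the Macrophage cluster, the median of the cluster was lower in Cyp51-KO tumors in 9 bins, with intervals apart in 0. The exception was the bin from 651 to 4970 UMIs, at 1306 genes in the Cyp51-KO and 844 in the sg-Ctrl tumors. Only 14 sg-Ctrl cells were counted there. With UMIs matched over bins of the cluster's own cells, the log2 ratio was smaller and its sign varied, at 0.0057 over 10 bins, -0.084 over 5 and -0.046 over 20. Whether the sparse cells with few UMIs set the sign of the matched value was not tested. Cells with 6000 genes or more, near the upper limit of 7000 genes in the study's filter, made up 9 of 580 (1.55%, 0.712 to 2.93) in the Cyp51-KO and 19 of 281 (6.76%, 4.12 to 10.4) in the sg-Ctrl tumors. The study's filter removed cells above that limit, and how many belonged to the cluster is not known here.

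**Figure D4:**
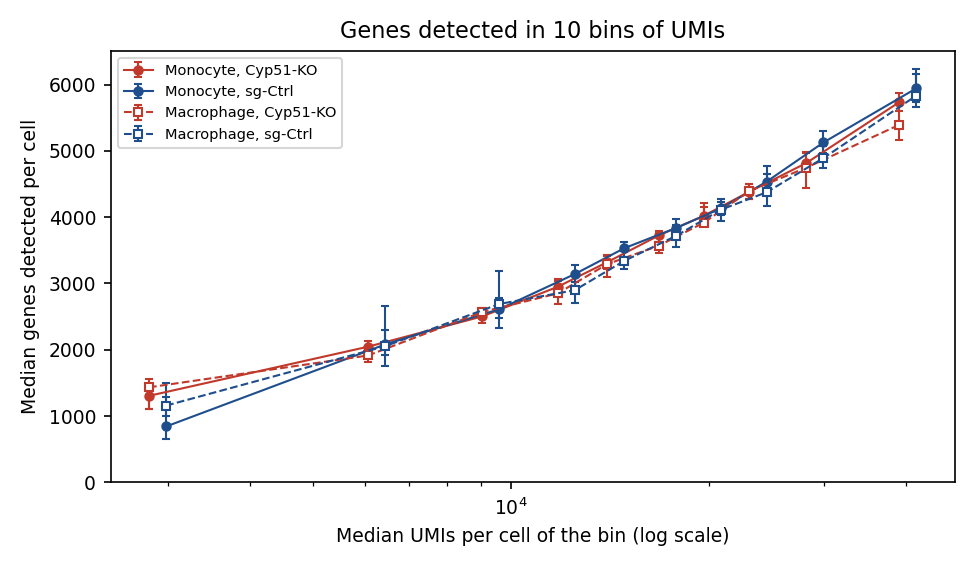
Median number of genes detected per cell (vertical axis) in 10 bins of UMIs per cell (median of the bin, log scale), for the cluster labelled Monocyte (filled circles) and the Macrophage cluster (open squares) in each group, with exact 95% intervals. The 4 lines run close together, and the points of the groups are moved slightly apart sideways.

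Mitochondrial transcripts took a smaller part of the UMIs of the cluster in Cyp51-KO tumors. The mitochondrial genome encodes subunits of the respiratory chain, and the percent of a cell's UMIs from its transcripts varies with cell type, metabolic state and damage to the cell. The median was 1.02% (0.991 to 1.06) in the Cyp51-KO and 1.49% (1.43 to 1.54) in the sg-Ctrl tumors, a difference of -0.47 percentage points (-0.55 to -0.37). Cells at 1.5% or more made up 92 of 580 cells, or 15.9% (13.0 to 19.1), in Cyp51-KO tumors. They made up 137 of 281, or 48.8% (42.8 to 54.8), in sg-Ctrl tumors. The lower quartile was 0.789% and 1.19%, and the upper quartile 1.30% and 1.84%, so the middle ranges of the groups overlapped only in part.

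The median mitochondrial percent was lower in Cyp51-KO tumors in 17 of the 20 clusters, and in 16 clusters the difference lay above that of the cluster labelled Monocyte. The Macrophage cluster had 0.825% (0.782 to 0.871) in the Cyp51-KO and 0.986% (0.936 to 1.05) in the sg-Ctrl tumors, a difference of -0.16 points (-0.27 to -0.065). The ranges of the 2 differences did not overlap. Mast cells gave -0.80 points, cDC -0.44 and neutrophils 0.28, so the direction was not shared by all myeloid clusters.

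The mitochondrial percent was also compared at like numbers of UMIs. Spearman's rho between UMIs and mitochondrial percent was 0.052 over 580 cells of the cluster in Cyp51-KO tumors and 0.0038 over 281 cells in sg-Ctrl tumors, where the cells of a group share a library pool and the percent has UMIs as its denominator. In 10 bins of UMIs over both clusters, the median of the cluster was lower in Cyp51-KO tumors in 9 bins, with intervals apart in 7. In the bin from 651 to 4970 UMIs it was 0.900% in the Cyp51-KO and 0.614% in the sg-Ctrl tumors, where only 14 sg-Ctrl cells were counted. With UMIs matched within the cluster the difference was -0.40 points, and with at least 10000 UMIs it was -0.46. The median of the Macrophage cluster was also lower in Cyp51-KO tumors in 9 of the 10 bins, with intervals apart in 1.

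**Figure D5:**
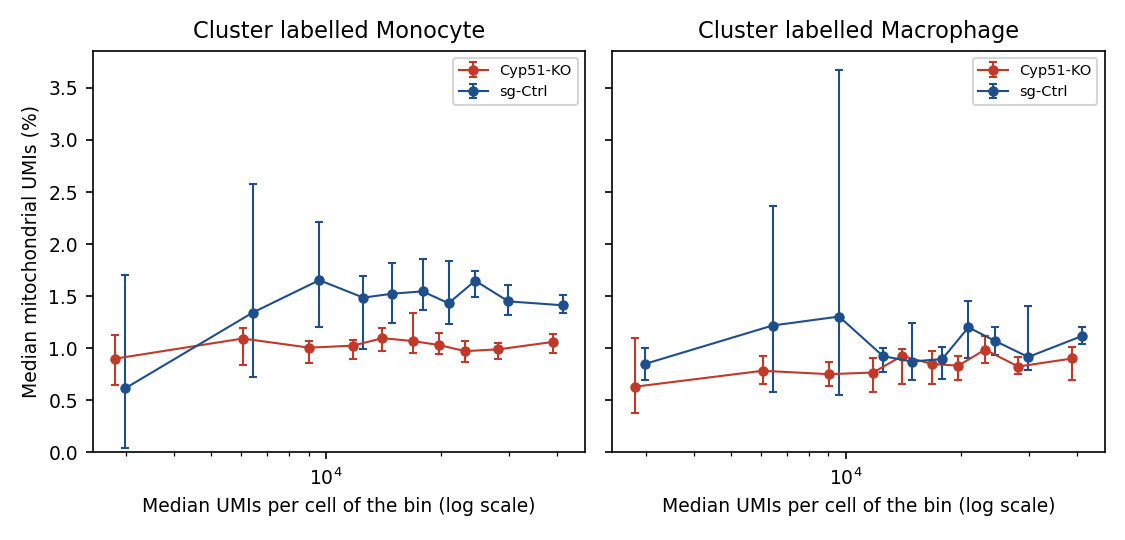
Median percent of UMIs from mitochondrial transcripts (vertical axis) in 10 bins of UMIs per cell (median of the bin, log scale), for the cluster labelled Monocyte (left) and the Macrophage cluster (right), with a line per group and exact 95% intervals. In the left panel the Cyp51-KO medians lie between 0.900% and 1.10% and the sg-Ctrl medians lie above them in 9 bins, and the points of the groups are moved slightly apart sideways.

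Beside the Macrophage cluster, the cluster labelled Monocyte was close in UMIs and genes and higher in mitochondrial percent. The log2 ratio of median UMIs, cluster over Macrophage, was 0.11 (-0.16 to 0.34) in the Cyp51-KO and 0.096 (-0.13 to 0.32) in the sg-Ctrl tumors. That of genes was 0.070 (-0.095 to 0.25) and 0.084 (-0.041 to 0.21). The ranges include 0 and allow a difference of the size of their bounds. The mitochondrial percent was higher in the cluster by 0.20 points (0.12 to 0.28) in the Cyp51-KO and by 0.50 points (0.37 to 0.60) in the sg-Ctrl tumors. In 10 bins of UMIs over both clusters, its median was higher in the cluster in 9 bins in each group. The intervals were apart in 1 bin in Cyp51-KO tumors and in 4 bins in sg-Ctrl tumors.

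The other myeloid clusters had fewer UMIs per cell. The log2 ratio of median UMIs, cluster over reference, was 1.79 in the Cyp51-KO and 2.34 in the sg-Ctrl tumors for neutrophils, 2.97 and 3.21 for mast cells, and 1.35 and 1.06 for cDC. Among all 20 clusters, the cluster was in place 4 from the top by UMIs in both groups, next above the Macrophage cluster. With its share of cells and its UMIs together, it gave 43.7% of all myeloid UMIs in the Cyp51-KO and 39.2% in the sg-Ctrl tumors. Of all UMIs it gave 5.93% and 6.31%, which is the opposite order to its share of all cells. Both of these denominators hold the cells labelled Malignant_cell, 2428 of 10484 cells in Cyp51-KO tumors and 729 of 7190 in sg-Ctrl tumors. How far their number sets this order was not tested.

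The study's corrected values, made by SCTransform to remove the effect of depth, differed less between the groups. The correction evens out depth by its construction, so no conclusion is drawn from the smaller difference. The median of corrected UMIs in the cluster was 7732 (7682 to 7775) in the Cyp51-KO and 7943 (7899 to 8008) in the sg-Ctrl tumors, which gives a log2 ratio of -0.039. The median of genes with a corrected UMI was 2500 (2451 to 2547) and 2786 (2725 to 2852), a log2 ratio of -0.16. In the Macrophage cluster the log2 ratios were -0.056 for corrected UMIs and -0.12 for these genes.

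Over the whole series, the median was 6509 UMIs and 2038 genes per cell in 10484 Cyp51-KO cells, and 7823 UMIs and 2466 genes in 7190 sg-Ctrl cells. The groups shared 98 cell barcodes, with 7 Cyp51-KO and 4 sg-Ctrl cells of the cluster among them and no barcode in the cluster in both. Without these barcodes, the log2 ratio of the share among myeloid cells was 0.34.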

How the data were processed

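Per the methods, reads were mapped to the mouse build GRCm38 and UMIs counted in Cell Ranger 7.0, and Seurat 4.2.0 (R 4.2.0) was used on the merged samples. The deposited table has a line per cell, holding the authors' raw count of UMIs, the number of genes, the percent of UMIs from mitochondrial genes, SCTransform-corrected totals, the group and the cluster name. The authors removed cells with under 200 or over 7000 genes, under 500 or over 100000 UMIs, or over 5% mitochondrial UMIs, and 0 deposited cells lay outside these limits. They also removed 5 small control clusters and clustered neutrophils and macrophage- or monocyte-like cells again. How the authors handled doublets was not given in the sources used, and doublets were not looked for. Since gene values were not used here, cells were not thinned to equal UMIs, and comparisons within bins of UMIs were made instead.

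Shares have exact 95% binomial (Clopper-Pearson) intervals and medians exact 95% intervals from the ordered values. The range of a ratio or difference sets the lower bound of one value against the upper bound of the other. Matched values give both groups the same weights over 10 bins of UMIs. The matched share and the interval of the median were tested on simulated data, and the other steps were not. Python 3.11.15, pandas 2.3.3, NumPy 2.4.6, SciPy 1.17.1 and Matplotlib 3.10.9 were used, and gene positions were read from GENCODE annotation of GRCm38. Genes were named only as given or textbook markers. Alternatives were other denominators, filters on UMIs and mitochondrial percent, matched UMIs and means. The members, the reference clusters and the measures were chosen with earlier results of these data known.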

Additional observations from a re-analysis of the deposited data

Results flagged for a closer look

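The cluster labelled Monocyte and 2 other myeloid clusters moved in opposite directions under the same contrast. The log2 ratio of the share among myeloid cells, Cyp51-KO over sg-Ctrl, was 0.35 for the cluster and -0.42 (-0.73 to -0.12) for the Macrophage cluster, which held 16.2% (14.6 to 17.9) against 21.7% (19.4 to 24.2). It was -0.39 (-0.60 to -0.18) for neutrophils, which held 28.3% (26.3 to 30.4) against 37.2% (34.5 to 40.0). The paper reports lower proportions of both macrophages and neutrophils in Cyp51-KO tumors from the same cells. The lower shares of these 2 clusters are thus a recount of its result. The 2 remaining myeloid clusters had a log2 ratio of the same sign as the cluster, 0.56 (0.23 to 0.90) for mast cells, at 20.8% (19.0 to 22.7) against 14.1% (12.2 to 16.2), and 0.45 (-0.27 to 1.19) for cDC, at 4.88% (3.97 to 5.94) against 3.58% (2.60 to 4.79). Together, the cluster labelled Monocyte and the Macrophage cluster held 895 of 1946 myeloid cells in Cyp51-KO and 542 of 1201 in sg-Ctrl tumors, which are close shares. How far the border between these clusters sets their opposite directions was not tested. The shares of 1 denominator depend on each other, each group was 1 pooled sample, and the difference between the clusters was not tested.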

How the results depend on the processing

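Of 106 values under alternative settings, over 11 results, 100 stayed within the counting range of the reported value. The settings drew on the same cells, so this count is not an independent check. It includes log2 ratios of the share whose own range held 0. These were the setting without neutrophils (-0.067 to 0.39) and that with at least 10000 UMIs (-0.091 to 0.40). The share among myeloid cells had a log2 ratio of 0.74 over all immune cells, and its 16 alternatives ran from 0.15 to 0.74. With at least 10000 UMIs, the log2 ratio was -0.23 for UMIs and -0.17 for genes of the cluster. With UMIs matched, the log2 ratio of genes was 0.0057 over 10 bins, which reversed its sign, -0.084 over 5 bins and -0.046 over 20 bins, and matching by its construction removes the difference in UMIs. The filter at 10000 UMIs, the 5 and 20 bins, the removal of shared barcodes and the denominator without the Macrophage cluster were added after seeing the data. The mitochondrial difference ran from -0.47 to -0.40 points over 10 alternatives. No paired analysis was possible because cells are tied to a group and not to a library. For the same reason each library apart, and leaving out a library, were not run. A difference between tumors, or between libraries of a group, could not be measured.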
